A study of Danio rerio with 14 samples.

Results

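The 10 genes described here are markers of blood vessel endothelium: cdh5, kdrl, flt1, flt4, tie1, tek, fli1a, egfl7, esama and clec14a. They were chosen by name, and each symbol was found once among the 31014 annotated features of the comparison tables. Levels are given as FPKM, fragments per kilobase of feature scaled for sequencing depth. The authors scaled them between libraries by upper-quartile normalization. All 10 were listed above 0 FPKM in every group, and 9 of them had a mean of at least 1 FPKM over the groups. The exception was flt4.

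The tissue was the lateral rectus (LR), the extraocular muscle (EOM) that turns the eye outward, from adult zebrafish whose genotype label is actin:GFP, a transgene in which an actin promoter drives a fluorescent protein. CON comprised 4 libraries of uninjured LR muscle, given as 0 h post injury (hpi) in the labels. H9 and H18 comprised 5 libraries each of LR muscle taken at 9 and 18 hpi, after part of the right LR muscle had been surgically removed. Each library was made from LR tissue of several fish, pooled after laser microdissection from frozen sections, so it contained every cell type inside the cut outline.

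Endothelial cells line the inside of blood vessels, form the barrier between blood and tissue and start new sprouts. Vascular endothelial growth factors (VEGFs) act on them through the Kdr and Flt receptor tyrosine kinases, and angiopoietins through the Tie receptors. Neighbouring endothelial cells are joined by VE-cadherin, the product of cdh5, while ETS transcription factors such as Fli1a maintain the identity of the lineage.

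Cuffdiff had combined the libraries of a group into 1 FPKM, so no group value below has an SD or an n, no difference was tested against the spread between libraries and no p-value is given. The group FPKM do not give the read depth behind them, and library depths were not used here. A gene is called higher or lower only in the sense that its ratio of FPKM plus 0.1 between groups was at least 1.5 in that direction, and log2 ratios use the same 0.1. The ratio understates the difference of genes with low FPKM. In such bulk tissue, fewer endothelial cells and less of an RNA per endothelial cell cannot be told apart.

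The group values of the members did not all differ in 1 direction after injury. At 9 hpi, 5 of them were higher than in CON (fli1a, esama, kdrl, tie1 and egfl7), flt1 was lower, and 4 were within 1.5-fold. At 18 hpi, 5 were lower than in CON (cdh5, flt1, clec14a, tek and esama), tie1 was higher, and 4 were within 1.5-fold. Between the injured groups, fli1a, kdrl, esama, cdh5 and tek were lower in H18 than in H9, and none was higher. The FPKM of the 10 genes summed to 39.6 in CON, 54.0 at 9 hpi and 29.8 at 18 hpi. Over all features with a mean of at least 1 FPKM, the sums were 3.56e+06 in CON, 2.94e+06 in H9 and 5.55e+06 in H18. Sums of FPKM, here and for the companion lists below, are therefore not parts of a common total.

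**Figure D1:**
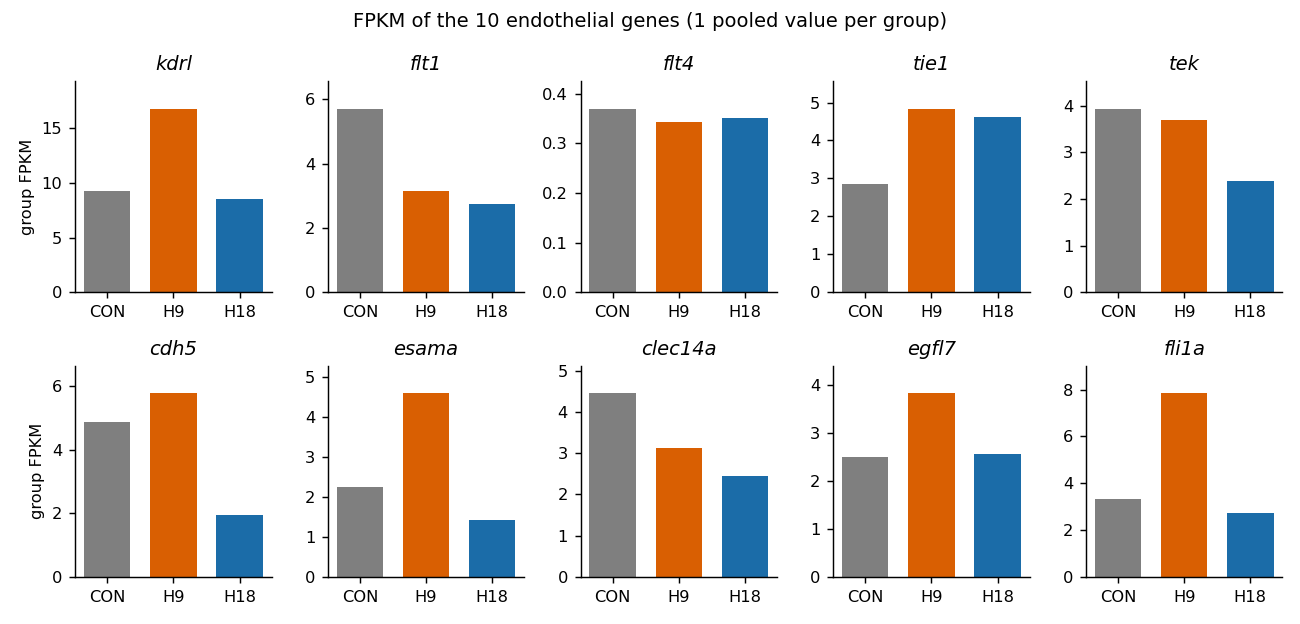
Group FPKM (vertical axis, starting at 0, a separate scale per gene) of each endothelial gene in CON, H9 and H18; each bar is the 1 pooled value of a group, so there are no error bars. The H9 bar is the tallest for fli1a, esama, kdrl, egfl7, tie1 and cdh5, whereas the CON bar is the tallest for flt1, clec14a, tek and flt4.

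The counts of members called have to be read against all features, because many differed by at least 1.5-fold. Of the 13447 features with a mean of at least 1 FPKM, 34.9% were higher in H9 than in CON and 31.4% were lower, against 5 and 1 of the 9 members that met the same minimum. For H18 over CON, 32.8% of these features were higher and 34.7% were lower, against 1 and 5 of the 9 members. For H18 over H9, 15.5% of the features were higher and 24.7% were lower, against 0 and 5 of the 9 members. The member flt4, below the minimum, was within 1.5-fold in all 3 comparisons.

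The median log2 ratio of the 10 members was 0.42 for H9 over CON, against 0.09 for all features with a mean of at least 1 FPKM. For H18 over CON it was -0.45, against -0.01. For H18 over H9 it was -0.59, against -0.15, so part of that difference was shared with the expressed features as a whole, and centring on their median left a member median of -0.44. The H9 and H18 comparisons share the same CON value for each gene.

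**Figure D2:**
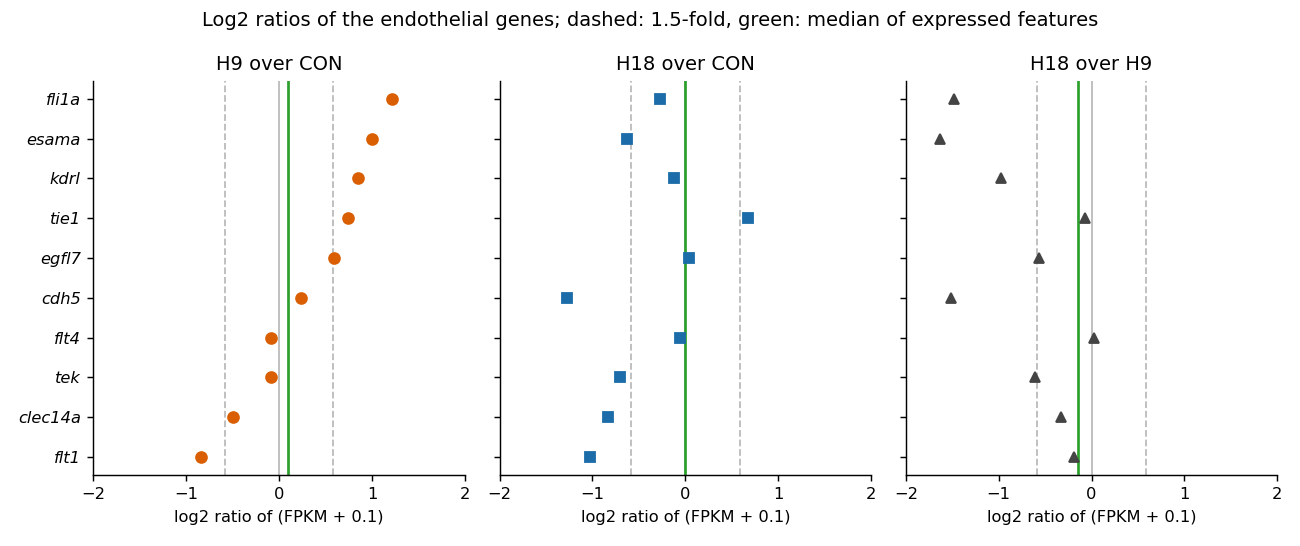
Log2 ratio of FPKM plus 0.1 (horizontal axis) for each endothelial gene (vertical axis, ordered by H9 over CON), in 3 panels for H9 over CON, H18 over CON and H18 over H9; dashed lines mark 1.5-fold and the green line the median of the 13447 expressed features. The points spread to both sides in the comparisons with CON, between -0.84 for flt1 and 1.21 for fli1a in H9, and lie at or left of 0.03 in H18 over H9.

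Among the VEGF receptors, kdrl was the most abundant of the 10 members in every group. It encodes a zebrafish counterpart of VEGF receptor 2, the main signalling receptor for VEGF-A in endothelium. Its FPKM was 9.31 in CON, 16.8 at 9 hpi and 8.52 at 18 hpi, a level above 83.0% of the expressed features in CON, 90.8% at 9 hpi and 82.4% at 18 hpi. The ratio was 1.80 for H9 over CON, 0.916 for H18 over CON and 0.510 for H18 over H9, so that H18 lay close to CON with a peak at 9 hpi. The gene lies on chromosome 14 of GRCz10, in the locus from 32643455 to 32704621.

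The receptor gene flt1 had the opposite order to kdrl at 9 hpi. It encodes VEGF receptor 1, which binds VEGF-A tightly and, in zebrafish and mammals, limits how much of it reaches the signalling receptor. Its FPKM was 5.72 in CON, 3.15 at 9 hpi and 2.76 at 18 hpi. The ratio was 0.559 for H9 over CON and 0.492 for H18 over CON, which made flt1 the only member that was lower than CON at both times, a pattern shown by 26.3% of the expressed features. After centring on the median of the expressed features, clec14a was also lower at both times (log2 ratios -0.59 and -0.83). The gene flt1 ranked second of the 10 members in CON and eighth in H9. Its locus spans 21605636 to 21663645 on chromosome 24.

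The level of flt4 was low throughout. It encodes VEGF receptor 3, the receptor for Vegfc on lymphatic and sprouting endothelium. Its FPKM was 0.370 in CON, 0.343 at 9 hpi and 0.352 at 18 hpi, the lowest of the members in each group. Its log2 ratio was -0.09 for H9 over CON and -0.06 for H18 over CON. As a description, 20.2% of the expressed features likewise stayed within 1.5-fold of CON at both times. The locus of flt4 spans 15511491 to 15651365 on chromosome 14, the same chromosome as kdrl.

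The Tie receptors also differed from each other. The gene tie1 encodes an orphan receptor that forms complexes with the angiopoietin receptor, and it had 2.86 FPKM in CON, 4.84 at 9 hpi and 4.62 at 18 hpi. Its ratio was 1.67 for H9 over CON and 1.59 for H18 over CON, and H18 over H9 was 0.955. It was the only member that was higher than CON at both times, a pattern found for 25.9% of the expressed features. With a pseudocount of 1 FPKM, tie1 at 18 hpi was within 1.5-fold (log2 ratio 0.54). The locus given for tie1, from 33996944 to 34024147 on chromosome 6, is given with the same start and end for its antisense transcript, listed as LOC100500728, which had 4.40 FPKM in CON, 4.59 at 9 hpi and 4.90 at 18 hpi. The libraries came from a stranded kit, but whether the counting used the strand is not given in the sources used here, so the share of reads from each strand in the value of tie1 is uncertain.

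The gene tek encodes Tie2, the receptor for the angiopoietins. It had 3.94 FPKM in CON, 3.70 at 9 hpi and 2.39 at 18 hpi. Its ratio was 0.940 for H9 over CON and 0.616 for H18 over CON, so it was lower only at the later time. The tek locus spans 473662 to 497867 on chromosome 5.

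Of the junction genes, cdh5 had the lowest ratio to CON of all members at 18 hpi. VE-cadherin, its product, holds endothelial cells together and is confined to that lineage in most tissues. The FPKM of cdh5 was 4.88 in CON, 5.77 at 9 hpi and 1.95 at 18 hpi. The ratio was 1.18 for H9 over CON, 0.413 for H18 over CON and 0.350 for H18 over H9. Its locus spans 44106370 to 44128657 on chromosome 7.

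The gene esama encodes an endothelial cell adhesion molecule of the immunoglobulin family found at tight junctions. It had 2.25 FPKM in CON, 4.60 at 9 hpi and 1.42 at 18 hpi. The ratio was 2.0 for H9 over CON, 0.647 for H18 over CON and 0.324 for H18 over H9, the lowest H18 over H9 ratio of the members. It was thus higher than CON at 9 hpi and lower at 18 hpi, a pattern that 0.855% of the expressed features showed, and it was the only member to do so. The H18 over CON part of it depends on the pseudocount, because the log2 ratio was -0.63 with 0.1 FPKM and -0.42 with 1 FPKM, short of 1.5-fold. Its locus spans 31702160 to 31782410 on chromosome 10.

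The surface lectin gene clec14a, which encodes an endothelial glycoprotein implicated in adhesion and sprouting, had 4.45 FPKM in CON, 3.12 at 9 hpi and 2.46 at 18 hpi. Its ratio was 0.706 for H9 over CON and 0.561 for H18 over CON. The H9 value was within 1.5-fold of CON as deposited, and passed it after centring on the median of the expressed features (log2 ratio -0.59). Together with cdh5 and tek, clec14a was within 1.5-fold of CON at 9 hpi and lower at 18 hpi, a pattern of 7.52% of the expressed features, against 3 of 9 members. This count depends on the settings. Centring moved clec14a out of it, and with a pseudocount of 1 FPKM tek at 18 hpi was within 1.5-fold (log2 ratio -0.54). The clec14a locus is the shortest of the members, from 10086132 to 10087854 on chromosome 17.

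The gene egfl7 encodes a secreted protein that endothelial cells deposit in the vessel matrix. It had 2.50 FPKM in CON, 3.83 at 9 hpi and 2.56 at 18 hpi. The ratio was 1.51 for H9 over CON, just past the threshold, and 1.02 for H18 over CON. With a pseudocount of 1 FPKM, or after centring, the H9 difference of egfl7 was under 1.5-fold (log2 ratios 0.46 and 0.50). The locus of egfl7, from 7666975 to 7703728 on chromosome 21, also carries the microRNA gene mir126b, which was listed at 0 in every group. The libraries were not prepared for small RNA, so this 0 does not show whether the microRNA was expressed.

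The transcription factor gene fli1a had the highest H9 over CON ratio of the members. Fli1a is an ETS factor expressed throughout the vasculature, and also in neural crest derivatives. The FPKM of fli1a was 3.33 in CON, 7.84 at 9 hpi and 2.74 at 18 hpi. The ratio was 2.32 for H9 over CON, 0.830 for H18 over CON and 0.358 for H18 over H9. It ranked sixth of the members in CON and second in H9. With kdrl and egfl7 it formed the members that were higher than CON at 9 hpi and within 1.5-fold at 18 hpi, 3 of 9 members against 8.14% of the expressed features. Of these, egfl7 was under 1.5-fold at 9 hpi with a pseudocount of 1 FPKM or after centring. The fli1a locus spans 48426337 to 48493178 on chromosome 18.

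The proportions within some pairs of members also differed between groups. The pairs below are a selection made for description, and other pairs of members are not given. The ratio of kdrl to flt1, the signalling and the limiting receptor, was 1.63 in CON, 5.34 at 9 hpi and 3.09 at 18 hpi. The ratio of kdrl to cdh5 was 1.91 in CON, 2.91 at 9 hpi and 4.36 at 18 hpi. The ratio of tie1 to tek was 0.727 in CON, 1.31 at 9 hpi and 1.93 at 18 hpi, so the order of these receptors by FPKM was reversed in both injured groups. For fli1a to cdh5 the ratio was 0.682 in CON, 1.36 at 9 hpi and 1.40 at 18 hpi. The error of these ratios is not known, since the group values have none.

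**Figure D3:**
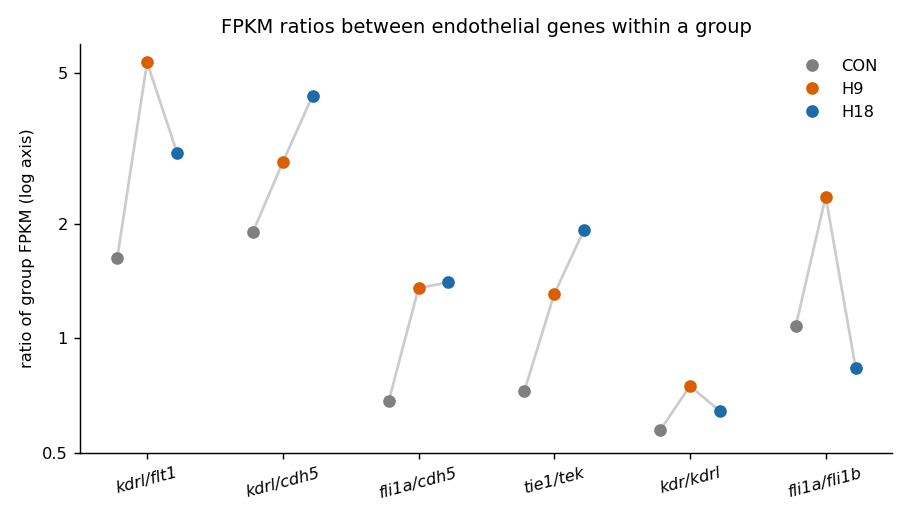
Ratio of the group FPKM of 2 genes (vertical axis, log scale) in CON, H9 and H18 for 6 pairs of endothelial genes and their paralogs (horizontal axis). The kdrl/flt1 ratio peaks at 5.34 in H9, the kdrl/cdh5 and tie1/tek ratios are highest in H18, and kdr/kdrl stays between 0.573 and 0.749.

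Zebrafish carry paralogs of several members. The paralog kdr, the other zebrafish gene of the VEGF receptor 2 type, had 5.33 FPKM in CON, 12.6 at 9 hpi and 5.49 at 18 hpi, the same order of groups as kdrl, and the ratio of kdr to kdrl was 0.573 in CON, 0.749 at 9 hpi and 0.644 at 18 hpi. The paralog fli1b did not have the H9 peak of fli1a, with 3.09 FPKM in CON, 3.31 at 9 hpi and 3.27 at 18 hpi. The ratio of fli1a to fli1b was therefore 1.08 in CON, 2.37 at 9 hpi and 0.838 at 18 hpi. The paralog esamb was near the floor, with 0.334 FPKM in CON, 0.068 at 9 hpi and 0.048 at 18 hpi, while esama was at 1.42 FPKM or more in each group.

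The ligands of these receptors were measured in the same tissue. For VEGF-A, vegfaa had 12.9 FPKM in CON, 16.8 at 9 hpi and 9.16 at 18 hpi, within 1.5-fold of CON at both times. The paralog vegfab had 23.7 FPKM in CON, 7.06 at 9 hpi and 3.28 at 18 hpi, and was lower than CON at both times (log2 ratios -1.74 and -2.82). The more abundant VEGF-A gene was thus vegfab in CON and vegfaa in both injured groups, with a ratio of vegfaa to vegfab of 0.541 in CON, 2.38 at 9 hpi and 2.80 at 18 hpi. 

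The genes vegfc and vegfd encode VEGF ligands known for lymphatic growth in mammals, and differed from CON in opposite directions at 9 hpi only. The gene vegfc had 0.179 FPKM in CON, 1.21 at 9 hpi and 0.265 at 18 hpi (log2 ratio 2.23 for H9 over CON and 0.39, within 1.5-fold, for H18 over CON). The gene vegfd, listed under its older symbol figf, had 32.3 FPKM in CON, 6.55 at 9 hpi and 3.34 at 18 hpi, with log2 ratios of -2.29 and -3.24 to CON. Of the remaining family members, vegfbb had 0.050 FPKM in CON, 0.401 at 9 hpi and 0.800 at 18 hpi, and vegfba 0.288 in CON, 0.125 at 9 hpi and 0.007 at 18 hpi. The placental growth factor gene pgfb, listed as pgf, was listed at 0 in CON, with 0.434 FPKM in H9 and 0.435 in H18, and pgfa was listed at 0 in CON and H18 with 0.013 FPKM in H9.

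The angiopoietin genes differed in the order of the groups. Angiopoietin 1, the activating ligand of Tie2 in mammals, is encoded by angpt1, which had 5.32 FPKM in CON, 1.19 at 9 hpi and 1.61 at 18 hpi (log2 ratios -2.07 and -1.66 to CON). Angiopoietin 2 can oppose it in mammals, and angpt2a had 0.242 FPKM in CON, 1.03 at 9 hpi and 0.353 at 18 hpi. The paralog angpt2b stayed at or below 0.111 FPKM. By FPKM, angpt1 was above angpt2a in every group.

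**Figure D4:**
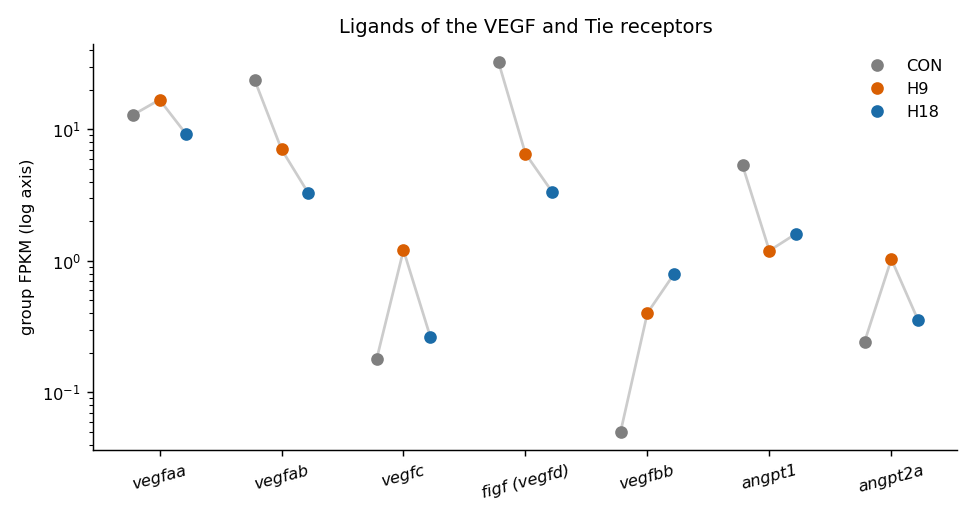
Group FPKM (vertical axis, log scale) of 7 ligand genes of the VEGF and Tie receptors (horizontal axis) in CON, H9 and H18, without error bars because each group has 1 value. CON is the highest point for vegfab, vegfd and angpt1, and H9 for vegfaa, vegfc and angpt2a.

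Across 30 vascular ligands and co-receptors, 20 had a mean of at least 1 FPKM. Of these, 4 were higher and 7 lower in H9 than in CON, with a median log2 ratio of -0.35, where 34.9% of all expressed features were higher and 31.4% lower. For H18 over CON, 2 were higher and 12 lower, with a median of -0.66, where 32.8% of the expressed features were higher and 34.7% lower. The share of lower ligand genes at 9 hpi was near that of all features. Next to kdr, the highest H9 ratios belonged to cxcr4a, a chemokine receptor of sprouting endothelium and many other cells, with 0.924 FPKM in CON, 4.08 at 9 hpi and 2.57 at 18 hpi, and to the VEGF co-receptor gene nrp1b, with 2.90 FPKM in CON, 8.74 at 9 hpi and 5.40 at 18 hpi.

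A wider list of endothelial and lymphatic genes was compared in the same way. It includes genes that other cells also express, such as ctnnb1, ctnnd1, ets1 and ets2. Its counts and medians therefore do not describe endothelium alone. Of 59 measured, 48 had a mean of at least 1 FPKM, of which 19 were higher and 11 lower in H9 than in CON (median log2 ratio 0.15). For H18 over CON, 9 were higher and 19 lower, with a median of -0.32. Over all expressed features the shares were 34.9% higher and 31.4% lower for H9 over CON and 32.8% higher and 34.7% lower for H18 over CON, so the count of higher genes at 9 hpi lay near the background. For H18 over H9, 0 were higher and 23 lower, with a median of -0.47 (15.5% of the expressed features were higher and 24.7% lower), while the 9 members of at least 1 FPKM had 0 higher and 5 lower with a median of -0.61. Other lists also had more lower than higher genes in H18 than in H9. Of 10 erythrocyte genes, 0 were higher and 8 lower (median -1.06), and of 26 muscle genes, 2 and 16 (-0.79). Of 14 low oxygen genes, 0 were higher and 9 lower (-0.70), and of the 20 ligands and co-receptors, 0 and 11 (-0.65). Of 17 mural genes, 3 were higher and 5 lower (-0.31), and of 21 leukocyte genes, 5 and 8 (0.02).

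The tight junction gene cldn5a had the highest ratio to CON among these 48 genes, with 0.506 FPKM in CON, 4.35 at 9 hpi and 1.20 at 18 hpi, and its paralog cldn5b had 3.46 in CON, 12.9 at 9 hpi and 5.67 at 18 hpi. The ETS factor gene ets1, which is also expressed in leukocytes and other cells, had 4.33 FPKM in CON, 23.5 at 9 hpi and 14.01 at 18 hpi. At the other end, calcrla, a receptor gene of the calcitonin family with roles in arterial development, had 11.9 FPKM in CON, 1.496 at 9 hpi and 0.519 at 18 hpi. The forkhead factor gene foxc1a had 7.63 FPKM in CON, 1.87 at 9 hpi and 1.51 at 18 hpi, and the receptor gene gpr182 had 2.97 in CON, 1.03 at 9 hpi and 0.404 at 18 hpi.

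Mural cells, the smooth muscle cells and pericytes, wrap the vessels that endothelium lines. Of 17 mural genes that met the minimum of 1 FPKM, 2 were higher and 6 lower in H9 than in CON, and 3 were higher and 9 lower in H18 than in CON. The lower share at 9 hpi was near the 31.4% of all expressed features, and that at 18 hpi is to be read against 34.7%. Of all expressed features, 34.9% were higher than CON at 9 hpi and 32.8% at 18 hpi. The smooth muscle actin-binding gene tagln had 5.66 FPKM in CON, 11.2 at 9 hpi and 23.1 at 18 hpi. The other mural genes with the highest ratios were pdgfra, which fibroblasts also express, with 5.98 FPKM in CON, 10.3 at 9 hpi and 9.58 at 18 hpi, and the proteoglycan gene cspg4 with 3.02 in CON, 3.08 at 9 hpi and 4.85 at 18 hpi. The lowest ratios belonged to the T-box factor gene tbx18, with 9.04 FPKM in CON, 0.725 at 9 hpi and 0.585 at 18 hpi, to smtnb, with 17.8 in CON, 3.76 at 9 hpi and 5.52 at 18 hpi, and to the channel subunit gene abcc9, with 7.77 in CON, 2.94 at 9 hpi and 2.16 at 18 hpi. How much of these values came from other cells, such as muscle fibers, was not tested.

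Markers of muscle and of leukocytes differed more from CON than the endothelial members did, by their medians. Muscle genes were the most abundant of the lists in CON, where the labels name muscle as the tissue, and their 26 genes of at least 1 FPKM summed to 20417 FPKM in CON, 2731 at 9 hpi and 1584 at 18 hpi. Of these, 24 were lower than in CON at 9 hpi and as many (24) at 18 hpi, with median log2 ratios of -2.72 and -3.30, where 31.4% and 34.7% of the expressed features were lower. The lowest muscle ratios belonged to atp2a1, the calcium pump of fast fibers, with 3434 FPKM in CON, 318.6 at 9 hpi and 109.6 at 18 hpi, to the actin gene acta1b, with 1591 in CON, 125.4 at 9 hpi and 57.5 at 18 hpi, and to tnni2a.4, with 9.51 in CON, 2.78 at 9 hpi and 0.150 at 18 hpi. The troponin gene tnnt3a was the only muscle gene higher in H18 than in CON, with 1.29 FPKM in CON, 1.12 at 9 hpi and 2.15 at 18 hpi. Of the expressed features, 32.8% were higher in that comparison. How far these shifts in the RNA mixture set the FPKM of the endothelial genes was not tested.

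Leukocyte genes were mostly higher after injury. Of 21, 17 were higher and 2 lower in H9 than in CON (median log2 ratio 1.93). In H18, 18 were higher and 2 lower (median 2.02). Of the expressed features, 34.9% were higher and 31.4% lower in H9, and 32.8% were higher and 34.7% lower in H18. The leukocyte genes summed to 391.9 FPKM in CON, 649.0 at 9 hpi and 621.7 at 18 hpi. None of them was listed at 0 in any group. The neutrophil peroxidase gene mpx had 0.063 FPKM in CON, 7.96 at 9 hpi and 4.92 at 18 hpi. The leukocyte plastin gene lcp1 had 0.187 FPKM in CON, 8.66 at 9 hpi and 5.64 at 18 hpi, and the macrophage gene mfap4 had 1.23 in CON, 10.95 at 9 hpi and 17.6 at 18 hpi. The antigen presentation genes cd74a and cd74b were the ones that were lower, with 159.0, 79.7 and 47.6 FPKM in CON, H9 and H18 for cd74a and 103.8, 64.9 and 40.1 FPKM for cd74b. Zebrafish fli1a and ets1 can also be expressed by blood cells, and their share from leukocytes was not tested.

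Genes known from erythrocytes were listed as markers of blood left in the sections. The 10 of them with a mean of at least 1 FPKM summed to 536.3 FPKM in CON, 623.3 at 9 hpi and 347.9 at 18 hpi. Most abundant was hbba1, listed as ba1, with 259.5 FPKM in CON, 364.7 at 9 hpi and 172.5 at 18 hpi. Next came hbaa1, with 187.8 FPKM in CON, 178.1 at 9 hpi and 135.2 at 18 hpi. The H9 peak of the sum was thus present in hbba1 and absent in hbaa1. In hbba1 it was under 1.5-fold (ratio 1.41 for H9 over CON). Of the 10 genes, 2 were higher in H9 than in CON and 2, ank1a and sptb, were lower. Of the expressed features, 34.9% were higher and 31.4% lower in this comparison. For H18 over CON, 0 were higher and 6 lower, against 32.8% of the expressed features higher and 34.7% lower. The embryonic globin gene hbae1 was listed at 0 in every group. Another, hbbe2, was listed at 0 in CON and H18 with 0.373 FPKM in H9. The beta globin gene hbba2, listed as zgc:92880, had 14.9 FPKM in CON, 25.9 at 9 hpi and 15.3 at 18 hpi, and the membrane skeleton gene epb41b had 0.829 in CON, 2.13 at 9 hpi and 0.993 at 18 hpi. The lowest ratios were those of ank1a, with 24.1 FPKM in CON, 7.18 at 9 hpi and 2.87 at 18 hpi, of the carbonic anhydrase gene cahz, with 10.6 in CON, 7.60 at 9 hpi and 2.01 at 18 hpi, and of sptb, with 11.1 in CON, 2.96 at 9 hpi and 2.86 at 18 hpi. The share of other cells, such as muscle fibers, in the values of ank1a and sptb was not tested. The part of blood or vessel content in the endothelial values was not tested.

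Among genes of the response to low oxygen, those with a mean of at least 1 FPKM were mostly lower after injury. Of 14 with a mean of at least 1 FPKM, 2 were higher and 8 lower in H9 than in CON (median log2 ratio -0.80). In H18, 1 was higher and 11 lower (median -1.60). Of the expressed features, 34.9% were higher and 31.4% lower in H9, and 32.8% were higher and 34.7% lower in H18. The adrenomedullin gene admb, listed as LOC570100, encodes a vasodilator peptide and had 0.102 FPKM in CON, 4.55 at 9 hpi and 0.134 at 18 hpi. The oxygen-regulated transcription factor gene hif1ab had 10.3 FPKM in CON, 20.5 at 9 hpi and 19.9 at 18 hpi. Among the lowest ratios were the glucose transporter gene slc2a1b, with 67.2 FPKM in CON, 20.6 at 9 hpi and 9.98 at 18 hpi, the mitophagy gene bnip3, with 13.5 in CON, 3.23 at 9 hpi and 2.11 at 18 hpi, and igfbp1b, with 2.55 in CON, 1.27 at 9 hpi and 0.125 at 18 hpi. Of the genes below the minimum of 1 FPKM, ca9 was higher than CON at both times, and egln1a and slc2a1a at 18 hpi only. In the same set, hif1aa was lower at both times and pdk1 was within 1.5-fold at both. Several genes of this list are also abundant in muscle.

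**Figure D5:**
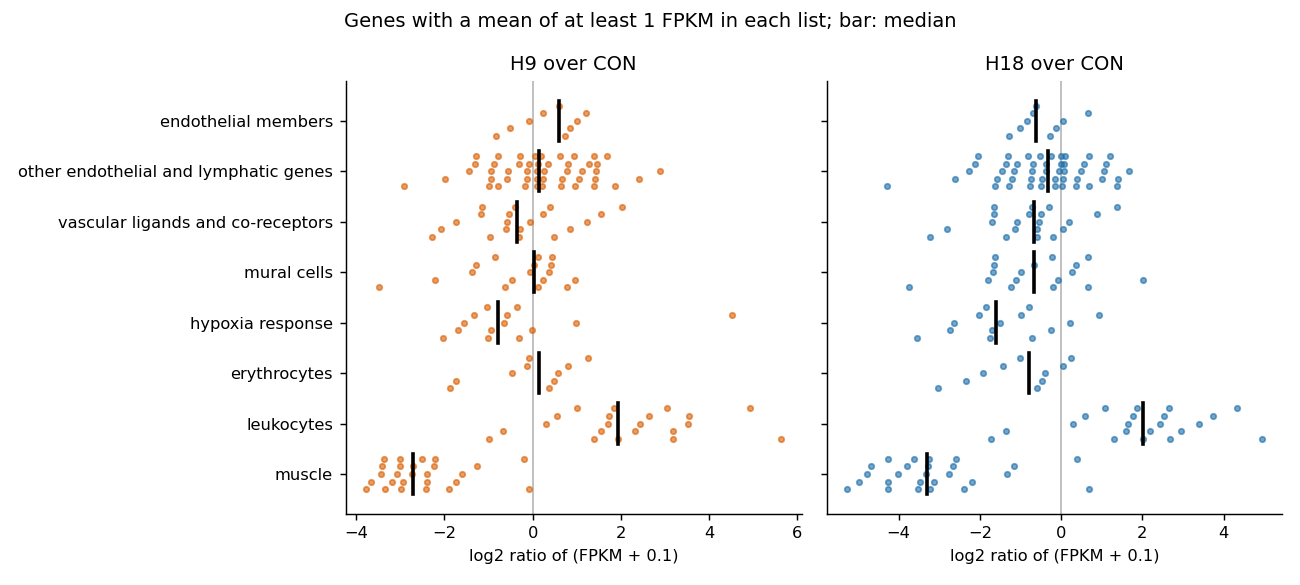
Log2 ratio of FPKM plus 0.1 (horizontal axis) to CON for every gene with a mean of at least 1 FPKM in the endothelial members and in 7 companion lists (vertical axis), in H9 (left panel) and H18 (right panel); each point is a gene, its height within a row has no meaning, and the black bar is the list's median. The endothelial members lie around medians of 0.60 in H9 and -0.63 in H18, between the leukocyte genes (medians 1.93 and 2.02) and the muscle genes (-2.72 and -3.30).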

How the data were processed

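RNA of LR muscle was sequenced as ribosome-depleted total RNA with single-end reads in 14 libraries (4 CON, 5 H9, 5 H18). According to the submitters' processing notes, reads were checked with FastQC 0.11.3, aligned to GRCz10 with TopHat2 2.0.13 and Bowtie2 2.2.1 and quantified with Cuffdiff 2.2.1. The deposited FPKM are 1 value per group and feature, which the authors made with a correction for multiply mapped reads and upper-quartile normalization. The tables also hold the authors' own fold changes, p-values and q-values, which were not used. A deposited count table has 14 columns of per-sample values whose names match no sample label. None was used, so the planned tests on counts were not run and group FPKM are described without a test.

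Log2 ratios were computed as log2 of FPKM plus 0.1, and a gene was called higher or lower at a ratio of at least 1.5. The share of calls was taken over 13447 features with a mean of at least 1 FPKM. The computation was run on CON values of at least 1 FPKM multiplied by set factors, without noise. This checks the arithmetic only, because the outcome was fixed by the factors, and it gives no error of the values. The tables were matched to a RefSeq gene table of a later assembly by Entrez identifier for names only (24823 features, all 10 members, of which fli1a is named fli1 there). Of 194 companion gene names in 7 lists, 190 were matched, 1 repeat was dropped and 3 (ramp2a, ramp2b and des) were not matched. Locus positions are those of Cuffdiff on GRCz10, counted from 1, and can cover overlapping genes. For 12 features, none of them a member, the FPKM of a group differed between the tables.

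The members and the lists were chosen with earlier results of these data known. Every member is named, and from each companion list up to 3 genes with the largest rise and 3 with the largest fall relative to CON among those with a mean of at least 1 FPKM and past 1.5-fold, plus the ligands of the receptors. Described outside this rule were fli1b, esamb, hbba1, hbaa1, hbae1, hbbe2, ca9, egln1a, slc2a1a, hif1aa and pdk1. So were the features under other observations. Alternatives were a fold threshold of 2 or 1.3, pseudocounts of 1 and 0.01, centring on the median of the expressed features, FPKM minimums and leaving out each member. Python 3.11.15, numpy 2.4.6, pandas 2.3.3 and matplotlib 3.10.9 were used.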

Additional observations from a re-analysis of the deposited data

How the results depend on the processing

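At a fold threshold of 2, 1 member differed for H9 over CON (6 at 1.5-fold), 2 for H18 over CON (6) and 3 for H18 over H9 (5). A pseudocount of 1 FPKM left 3 members for H18 over CON, moved their median log2 ratio from -0.45 to -0.32, and moved that of H18 over H9 from -0.59 to -0.45, where centring gave -0.44. With a mean of at least 1 FPKM, which leaves out flt4, the median was 0.60 for H9 over CON (0.42 with all members) and -0.63 for H18 over CON. Leaving out each member in turn gave medians of 0.24 to 0.60 for H9 over CON, -0.63 to -0.27 for H18 over CON and -0.61 to -0.56 for H18 over H9. Centring changed the split for H9 over CON from 5 higher and 1 lower to 4 higher and 2 lower. The shares of all expressed features were taken only at 1.5-fold, with a pseudocount of 0.1 and without centring. The member counts at the other settings therefore have no background beside them and cannot be read as above or below it. Under a pseudocount of 1 FPKM, egfl7 at 9 hpi and tie1, tek and esama at 18 hpi were within 1.5-fold of CON (log2 ratios 0.46, 0.54, -0.54 and -0.42), and tek was within it for H18 over H9 (-0.47, and -0.46 when centred). Whether a member's called direction could reverse was not put to a test by these alternatives. A pseudocount cannot change the sign of a log2 ratio. Centring shifted the log2 ratios by 0.15 or less, too little to reverse a call at 1.5-fold. The cause of each difference was not tested beyond the construction of the alternative. The fold threshold of 1.3 was chosen after the data were seen.

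No paired analysis was possible because the sample labels give no pairing between libraries and the group FPKM carry no replicate. Because the count columns match no sample label, edgeR, DESeq2, a fit without a filter on low counts and fits without each library were not run. The error of every value is unknown.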

Other observations

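Further features with a vascular name in their description were looked up after the values of the members were seen. Those named here are a selection made by no rule, and the rest are not given. A feature described as similar to the VEGF receptor kdr, LOC103909948, had 0.339 FPKM in CON, 1.17 at 9 hpi and 1.25 at 18 hpi, and reads shared with kdr or kdrl could be split between them. The vascular endothelial zinc finger paralogs had opposite orders, with 0.980, 4.67 and 3.08 FPKM in CON, H9 and H18 for vezf1a and 3.38, 1.12 and 1.98 FPKM for vezf1b. A similar feature, LOC100535691, had 0.587, 0.270 and 0.358 FPKM in CON, H9 and H18. Of the angiopoietin-like genes, angptl2a had 2.88 FPKM in CON, 5.83 at 9 hpi and 4.16 at 18 hpi, whereas angptl2b had 3.70 in CON, 0.867 at 9 hpi and 0.376 at 18 hpi. The endothelial lipase gene lipg had 1.66 FPKM in CON, 2.70 at 9 hpi and 1.81 at 18 hpi. Other genes with endothelial in their description differed in both directions. In CON, H9 and H18, esm1 had 0.420, 0.839 and 0.479 FPKM, and tnfaip1 had 1.54, 3.88 and 2.26. By contrast, pear1 had 2.48, 1.17 and 0.931 FPKM, bmper 1.51, 0.748 and 0.550, and cercam 1.76, 0.808 and 1.08.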
